A study of Mus musculus with 18 samples.

Results

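The interferon regulatory factors (IRFs) measured here were the 8 genes Irf1, Irf2, Irf3, Irf4, Irf5, Irf7, Irf8 and Irf9, taken as every probe set of the array annotated to exactly 1 of these symbols. This gave 14 of 45101 probe sets, or 8 of 18194 genes that have a probe set of their own. Bone marrow of IL-10-/- animals was grown into macrophages over 7 days with CSF-1 from L cell medium, and the cells were treated without CSF-1. At 10, 20 and 30 min there was a group given IL-10 at 10 ng/ml together with LPS at 100 ng/ml and a group given the same LPS alone, with 3 arrays in each of the 6 groups. All 18 arrays therefore shared the deletion and LPS, and the comparisons had no untreated group. The 3 replicates were whole experiments run in sequence on mice matched for age and sex, and are called experiments 1, 2 and 3. Values are Affymetrix signals on a linear scale, which were deposited with the same trimmed mean on every array, and a signal can be compared between arrays but not between probe sets.

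IRFs are transcription factors that share a DNA-binding domain reading the interferon-stimulated response element. In macrophages LPS binds Toll-like receptor 4, whose adaptors lead to NF-kB and to phosphorylation of Irf3, and the interferon then made acts through a complex that holds Irf9 on a large set of antiviral genes. IL-10 acts through its receptor mainly on Stat3, and cells with the IL-10 gene disrupted lack the feedback of their own cytokine. Irf3 is mostly controlled by phosphorylation, whereas Irf1 and Irf7 are known for regulation of their transcripts.

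The RefSeq promoter table (build GRCm38.p6) held all 8 genes in 11 windows of 250 bases before to 50 bases after a start, some genes having more than 1 start. The windows of Irf1, Irf2 and Irf7 are shown because Irf1 was the member whose signal differed between treatments, Irf2 competes with it for the same sites, and Irf7 differed most between experiments. Each reads 5′ to 3′ along the gene's strand, in lower case with matched motifs in capitals. They lie at chr11:53769764-53770063 (Irf1, plus strand), chr8:46739495-46739794 (Irf2, plus strand) and chr7:141266375-141266674 (Irf7, minus strand).
Irf1: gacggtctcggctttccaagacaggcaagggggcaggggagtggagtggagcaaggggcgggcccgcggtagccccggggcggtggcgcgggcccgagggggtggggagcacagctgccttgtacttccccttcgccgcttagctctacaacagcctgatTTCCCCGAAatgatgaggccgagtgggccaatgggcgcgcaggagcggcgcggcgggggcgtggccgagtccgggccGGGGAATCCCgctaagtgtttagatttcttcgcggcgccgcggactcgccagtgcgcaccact
Irf2: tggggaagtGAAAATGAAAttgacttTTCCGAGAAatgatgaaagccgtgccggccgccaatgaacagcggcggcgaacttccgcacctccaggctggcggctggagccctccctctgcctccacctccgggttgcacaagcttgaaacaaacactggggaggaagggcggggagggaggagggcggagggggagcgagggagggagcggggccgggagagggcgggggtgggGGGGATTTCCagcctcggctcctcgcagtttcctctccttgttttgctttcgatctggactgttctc
Irf7: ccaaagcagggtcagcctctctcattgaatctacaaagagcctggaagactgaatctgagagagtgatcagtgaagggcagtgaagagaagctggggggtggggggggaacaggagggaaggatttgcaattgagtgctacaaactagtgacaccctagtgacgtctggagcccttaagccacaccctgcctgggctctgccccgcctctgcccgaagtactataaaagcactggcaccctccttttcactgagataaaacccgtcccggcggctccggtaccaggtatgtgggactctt
The capitals mark matches, on either strand, to the gamma-activated site TTCNNNGAA, to the interferon-stimulated response element (GAAA, then any 2 bases, then GAAA), and to the NF-kB consensus. In Irf1 the gamma-activated site TTCCCCGAA began 90 bases before the start and the NF-kB match GGGGAATCCC 13 bases before it, and the gene's other window held none of the motifs. In Irf2 the response element GAAAATGAAA began 241, the gamma-activated site TTCCGAGAA 224 and the NF-kB match GGGGATTTCC 17 bases before the start. No match was found in the Irf7 window. Of the other members only Irf8 held a match, with 2 gamma-activated sites, TTCTCGGAA and TTCAGAGAA, beginning 171 and 153 bases before its start. The gamma-activated site was present in 8.30%, the response element in 3.44% and the NF-kB consensus in 8.46% of all 32851 promoter windows. The matched motifs of a window did not overlap each other.

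The culture label was checked against marker genes. All 9 macrophage markers on the array were tested, with a summed signal of 113426 to 201486 over the arrays, and Csf1r, the CSF-1 receptor, lay between 19735.9 and 43020.9. The B lymphocyte, T lymphocyte, dendritic and erythroid lists each summed to between 50.7 and 555.8, with 8 of their 15 genes tested. Of the T lymphocyte genes only Cd3e was tested, at 10.9 to 174.7. The others lay at 3.4 to 31.6 (Cd3d), 2.9 to 87.6 (Cd3g) and 4.6 to 92.3 (Cd2). All 7 granulocyte markers were tested and summed to 5639.6 to 14020, and the 4 stromal markers to 1577.5 to 3602.3. Most of the granulocyte sum came from S100a8 and S100a9, with medians of 4120.75 and 2734.4. Such sums can be compared between arrays but do not give the proportions of cell types. At 20 min the LPS arrays of experiments 2 and 3 differed from the rest at the dim end, with lower quartiles of 38.6 and 34.0 against 21.8 to 31.0 on the other 16 arrays. The Il10 probe set gave 602.1 to 3209.2. Its position relative to the disrupted part of the gene was not known, so this checks nothing about the genotype. In such cultures fewer cells of a type and less RNA per cell cannot be told apart.

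Irf1, an activator of interferon-inducible and antigen presentation genes, was higher at 30 min with LPS plus IL-10 than with LPS in all 3 experiments, and was the only one of the 12 tested IRF probe sets to pass a test. The test was limma on log2(signal + 16) over 27110 probe sets with Benjamini-Hochberg adjustment and a threshold of 0.05, and Irf1 passed only where experiment was a block in the fit. Signals are given for each group in the order of experiments 1, 2 and 3. At 10 min Irf1 had signals of 2072.2, 2021.7 and 1464.8 with LPS plus IL-10, against 1904.5, 1880.6 and 1421.0 with LPS. At 20 min Irf1 had signals of 2470.0, 2151.2 and 1577.4 with LPS plus IL-10, against 2079.1, 1749.1 and 1097.7 with LPS. At 30 min Irf1 had signals of 4696.7, 3006.0 and 3983.5 with LPS plus IL-10, against 2121.6, 2215.1 and 1387.9 with LPS. All 3 arrays with LPS plus IL-10 at 30 min were above the other 15 arrays, which holds for 25 of the 27110 probe sets (0.0922%). At 10 and 20 min the groups overlapped. Experiment 3 gave the lowest signal in 5 of the 6 groups.

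**Figure D1:**
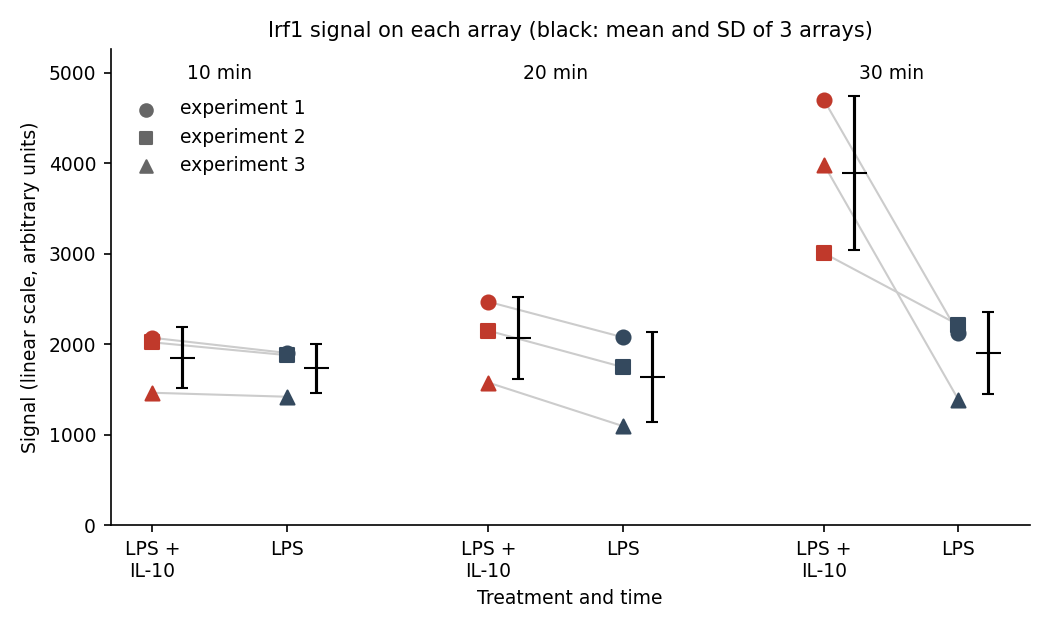
Irf1 signal (linear scale, arbitrary units) on each of the 18 arrays by time and treatment. Symbols mark the experiment, grey lines join the treatments of an experiment, and black bars give the mean and SD of 3 arrays; the 3 arrays of LPS plus IL-10 at 30 min lie between 3006.0 and 4696.7, above all others.

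Irf1 averaged 3895.4 ± 849 with LPS plus IL-10 and 1908.2 ± 453 with LPS at 30 min (SD, n = 3 each). The difference was 1.03 on the log2 scale, with an adjusted p of 1.00 from limma without the block (SE 0.26) and 0.00801 with it (SE 0.15, 95% interval 0.71 to 1.35). In the 3 experiments it was 1.14, 0.44 and 1.51. Experiment 2, in which the smallest difference was seen, had the lowest signal with LPS plus IL-10 and the highest with LPS. With the block, 12 of all tested probe sets passed in this comparison (0.0443%), and without it 3 did (0.0111%). The call rested on few arrays. Without experiment 1 the difference was 0.97 (adjusted p 1.00 with the block), without experiment 3 it was 0.79 (adjusted p 0.156) and without experiment 2 it was 1.33 (adjusted p 0.00661). With the block it was also lost on leaving out any 1 of the 4 arrays of experiments 1 and 3 at 30 min (adjusted p 0.0665 to 0.103), and remained on leaving out any 1 of the other 14. At 30 min the summed granulocyte markers were 6111.0 to 14020 with LPS plus IL-10 and 5796.7 to 13946.5 with LPS, and the macrophage markers 140249 to 153860 with LPS plus IL-10 and 114966 to 150990 with LPS.

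At the earlier times the treatments did not differ beyond the threshold. At 10 min Irf1 averaged 1852.9 ± 337 with LPS plus IL-10 and 1735.4 ± 273 with LPS (SD, n = 3 each), a difference of 0.09 (95% interval with the block -0.23 to 0.41). At 20 min it averaged 2066.2 ± 452 with LPS plus IL-10 and 1642.0 ± 499 with LPS (SD, n = 3 each), a difference of 0.35 (95% interval with the block 0.03 to 0.68) that was above 0 in 3 of 3 experiments and did not pass (adjusted p 0.622 from limma with the block). With the 20 min LPS arrays of experiments 2 and 3 left out that value was 0.18 with the block and -0.03 without it. Averaged over the times the IL-10 difference was 0.49, with an adjusted p of 0.0766 from limma with the block and 1.00 without it. Leaving out the LPS plus IL-10 array of experiment 2 at 30 min took this to 0.57 with an adjusted p of 0.00114 in the blocked fit. The test of whether the IL-10 difference itself was larger at 30 than at 10 min gave 0.94 and did not pass in either fit (limma adjusted p 0.747 with the block, 0.00041 before adjustment). It passed only on leaving out that same array (1.19, limma with the block, adjusted p 0.0232).

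Over time, Irf1 was higher at 30 than at 10 min with LPS plus IL-10, by 1.06 on the log2 scale (95% interval with the block 0.74 to 1.38) and by 1.17, 0.57 and 1.43 in the 3 experiments. The adjusted p from limma was 0.00222 with the block and 0.73 without it. With the block 61 of the tested probe sets passed in this comparison (0.225%), 53 of them higher at 30 min (0.195%). This call remained on leaving out any single array and was lost only without experiment 1 (1.00, limma with the block, adjusted p 0.392). With LPS alone the difference between 30 and 10 min was 0.12 (95% interval with the block -0.20 to 0.44), with 0.15, 0.23 and -0.03 in the experiments. The IL-10 difference at 30 min and the time difference with LPS plus IL-10 share the 3 arrays with the highest signals. Between 30 and 20 min the difference with LPS plus IL-10 was 0.91 without overlap of the groups, as for 5.33% of all tested probe sets, and it did not pass (limma with the block, adjusted p 0.0626). It passed on leaving out the LPS array of experiment 3 at 20 min or the LPS plus IL-10 array of experiment 2 at 30 min (limma with the block, adjusted p 0.0289 and 0.0026). Averaged over the treatments, 30 min exceeded 10 min by 0.59 (limma adjusted p 0.0134 with the block, against 1.00 without it), where 118 of the tested probe sets passed with the block (0.435%). That call was lost without experiment 1 (0.55, adjusted p 0.579) and remained for 14 of the 18 single arrays left out.

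By mean signal the order of the conditions for Irf1 was LPS plus IL-10 at 30 min, LPS plus IL-10 at 20 min, LPS at 30 min, LPS plus IL-10 at 10 min, LPS at 10 min and LPS at 20 min. The highest was apart from the rest, and each neighbouring pair among the others overlapped. Differences between conditions made up 69.0% of the variance of Irf1 over the 18 arrays, a higher share than in 99.4% of the tested probe sets, and differences between experiments 20.9%.

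The 5 genes whose signal followed Irf1 most closely over the 18 arrays, after each experiment's mean was subtracted, were Gadd45b (Pearson r = 0.87), Gadd45g (0.87), Tubb2a (0.86), Mt2 (0.81) and Il10 (0.81). Gadd45b and Gadd45g encode growth arrest and DNA damage inducible proteins, Tubb2a a beta tubulin and Mt2 a metallothionein. These correlations describe arrays that share experiments and scaling, and were the highest among 12527 genes. At 30 min Gadd45g averaged 2256.3 ± 109 with LPS plus IL-10 and 749.0 ± 366 with LPS (SD, n = 3 each), and Gadd45b 1970.7 ± 842 with LPS plus IL-10 and 1063.4 ± 543 with LPS. Gadd45g (1.70, adjusted p 0.00261) and Il10 (0.98, adjusted p 0.0233) passed limma with the block in that comparison, as 0.0443% of all tested probe sets did. Gadd45b (0.90, adjusted p 0.0945), Mt2 (0.53, adjusted p 0.0728) and Tubb2a (0.14, adjusted p 1.00) did not. All 5 genes were picked by their correlation with Irf1 on these same arrays. A difference at 30 min was therefore partly built into that choice, and these tests are not separate evidence. None of the other tested IRFs followed Irf1 by this correlation, with r between -0.31 and 0.18 for their representative probe sets. Irf4 had no tested probe set and was not compared.

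Irf2 binds the same sites as Irf1 and is known mainly as a repressor there. Its only probe set is of a type that can detect transcripts of several genes. At 10 min Irf2 had signals of 804.8, 540.8 and 964.0 with LPS plus IL-10, against 724.2, 652.9 and 914.3 with LPS. At 20 min Irf2 had signals of 766.7, 1125.3 and 1027.3 with LPS plus IL-10, against 870.6, 604.8 and 1306.6 with LPS. At 30 min Irf2 had signals of 591.7, 847.6 and 966.1 with LPS plus IL-10, against 654.8, 925.8 and 843.2 with LPS. The treatments overlapped at every time and none of the experiments kept 1 direction. The IL-10 difference at 30 min was -0.02 (95% interval with the block -0.46 to 0.41), and the 30 against 10 min difference was 0.07 (95% interval with the block -0.37 to 0.51) with LPS plus IL-10 and 0.08 (95% interval with the block -0.36 to 0.52) with LPS. These intervals leave room for changes of up to about the size of 0.52 on the log2 scale, below the 1.03 of Irf1. Other Irf2 comparisons reached further, as for 20 against 10 min with LPS plus IL-10 at 0.35 (95% interval with the block -0.09 to 0.79). At 20 min experiment 2 had 1125.3 with LPS plus IL-10 and 604.8 with LPS, whereas experiments 1 and 3 ran the other way.

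Irf3, present in resting cells and activated by phosphorylation through Tbk1, is the first inducer of interferon beta after LPS. Its brightest probe set, 1426111_x_at, is of a type that can cross-hybridise. At 10 min Irf3 had signals of 933.4, 1004.2 and 1275.7 with LPS plus IL-10, against 961.5, 1262.8 and 1278.4 with LPS. At 20 min Irf3 had signals of 918.3, 1360.3 and 1118.8 with LPS plus IL-10, against 835.2, 1228.8 and 1052.9 with LPS. At 30 min Irf3 had signals of 865.2, 1009.4 and 1225.2 with LPS plus IL-10, against 856.9, 1050.4 and 1229.5 with LPS. The groups overlapped at all times, and experiment 1 (835.2 to 961.5) lay below the other experiments (1004.2 to 1360.3). The IL-10 difference was -0.02 (95% interval with the block -0.27 to 0.24) at 30 min, the narrowest interval among the Irf3 probe sets. The other 3 were dimmer and more scattered over the arrays, at 59.2 to 459.5 (1416898_a_at), 56.1 to 202.5 (1435271_at) and 8.0 to 167.9 (1438721_a_at), and their IL-10 differences at 30 min of -0.29, 0.35 and 0.26 did not share a sign. On 1416898_a_at the 30 min groups did not overlap, with 294.3, 327.5 and 279.0 with LPS plus IL-10 against 370.8, 361.7 and 379.6 with LPS, and the difference did not pass (limma with the block, adjusted p 1.00). This probe set was also higher at 30 than at 20 min with LPS without overlap (7.62% of all tested probe sets), by 1.08 (limma with the block, adjusted p 0.352), where the 20 min arrays of experiments 2 and 3 gave 59.2 and 208.0. On 1435271_at the 30 against 10 min difference with LPS was -0.70 (95% interval with the block -1.36 to -0.03, limma adjusted p 1.00).

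Irf7 amplifies type I interferon production and is itself induced by interferon. Its signal differed far more between experiments than between treatments or times. At 10 min Irf7 had signals of 2704.1, 12922.4 and 2673.3 with LPS plus IL-10, against 2401.2, 12436.7 and 2605.1 with LPS. At 20 min Irf7 had signals of 2406.2, 10528.0 and 2988.2 with LPS plus IL-10, against 2889.8, 10331.7 and 2062.6 with LPS. At 30 min Irf7 had signals of 2430.4, 10363.0 and 2706.3 with LPS plus IL-10, against 1994.6, 10749.5 and 2803.2 with LPS. The 6 arrays of experiment 2 lay between 10331.7 and 12922.4 and the other 12 between 1994.6 and 2988.2, with a ratio of medians of 4.03. The IL-10 difference at 30 min was 0.06 (95% interval with the block -0.23 to 0.35). Without the block the interval was -1.79 to 1.91, since that fit counts the spread between experiments as error. In experiment 2 both 10 min arrays were above the 4 later ones, which was not so in experiments 1 and 3, and the 30 against 10 min difference averaged over treatments was -0.14 (95% interval with the block -0.34 to 0.07). Each experiment was done once, so the difference of experiment 2 has no test.

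**Figure D2:**
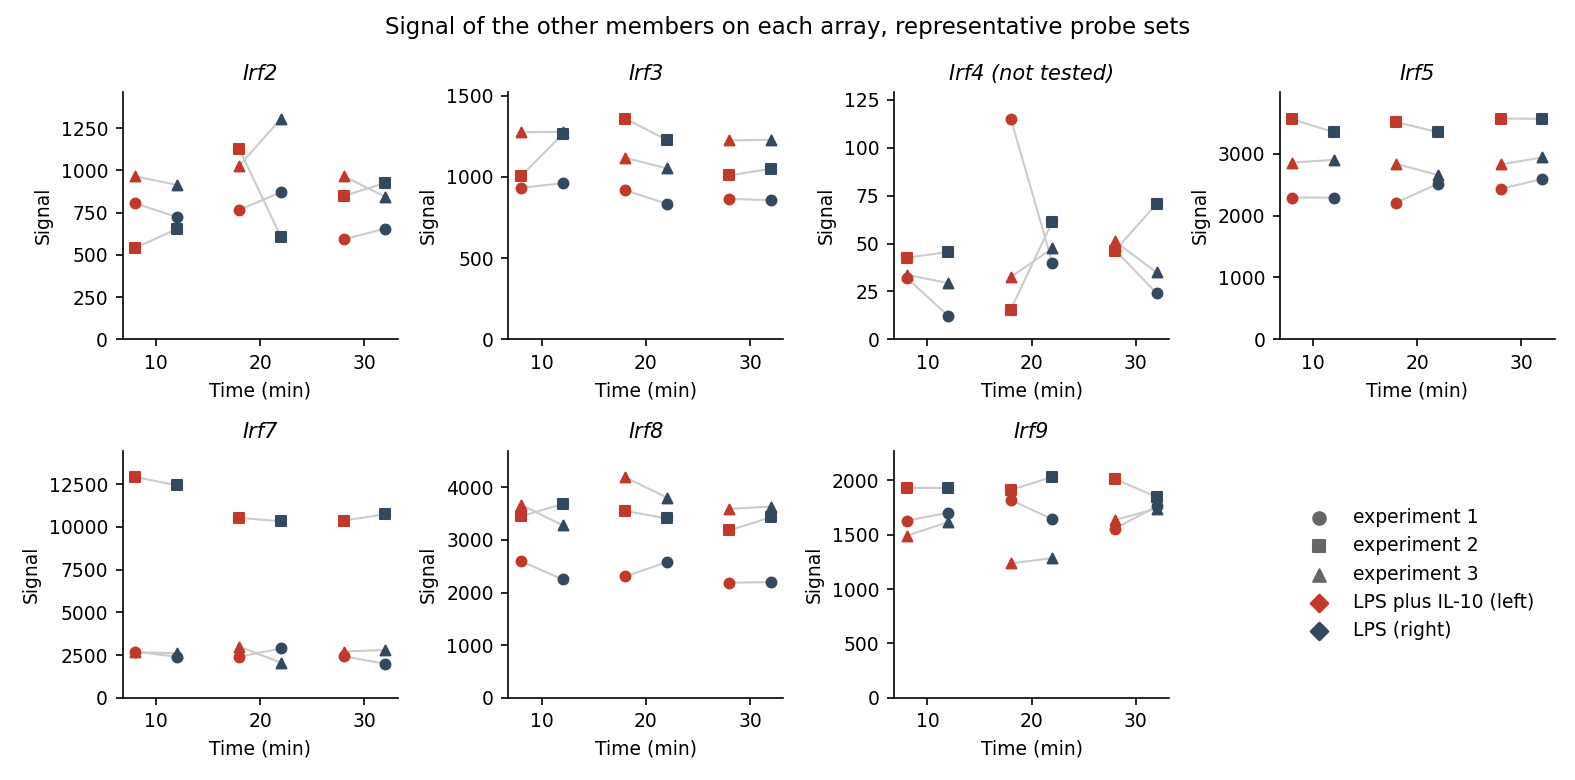
Signal (linear scale) of the representative probe set of each other member on the 18 arrays, by time in min, with LPS plus IL-10 left of LPS. Symbols mark the experiments; the Irf7 panel shows experiment 2 at 10331.7 and above while the other 12 arrays reach at most 2988.2, and the Irf8 panel shows experiment 1 at 2599.1 and below.

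Irf5 acts with the adaptor Myd88 in the induction of inflammatory cytokines. At 10 min Irf5 had signals of 2290.5, 3554.5 and 2854.9 with LPS plus IL-10, against 2288.5, 3345.7 and 2899.8 with LPS. At 20 min Irf5 had signals of 2208.5, 3508.3 and 2833.9 with LPS plus IL-10, against 2515.2, 3345.9 and 2653.5 with LPS. At 30 min Irf5 had signals of 2428.6, 3567.1 and 2826.3 with LPS plus IL-10, against 2592.0, 3561.1 and 2937.4 with LPS. The experiments separated without overlap on this probe set, with 3345.7 to 3567.1 in experiment 2, 2653.5 to 2937.4 in experiment 3 and 2208.5 to 2592.0 in experiment 1. The IL-10 difference at 30 min was -0.05 (95% interval with the block -0.23 to 0.13), the narrowest interval of the 12 tested probe sets. With LPS the 30 against 10 min difference was 0.10 (95% interval with the block -0.09 to 0.28). The second, dimmer probe set (1449678_at, 80.1 to 484.1) was higher at 20 than at 10 min with LPS by 1.06 (95% interval with the block 0.30 to 1.83), which did not pass (limma adjusted p 0.443), and with the 20 min LPS arrays of experiments 2 and 3 left out by 0.87. The representative probe set gave 0.00 in that comparison.

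Irf4 and Irf8 are partners of PU.1, the factor encoded by Spi1, and Irf8 is needed for the development of monocytes and macrophages. At 10 min Irf8 had signals of 2599.1, 3448.8 and 3670.7 with LPS plus IL-10, against 2249.9, 3681.7 and 3280.9 with LPS. At 20 min Irf8 had signals of 2306.0, 3551.6 and 4196.2 with LPS plus IL-10, against 2578.3, 3408.6 and 3805.8 with LPS. At 30 min Irf8 had signals of 2186.7, 3182.2 and 3591.7 with LPS plus IL-10, against 2199.6, 3430.0 and 3633.8 with LPS. Treatments overlapped at every time, while the 6 arrays of experiment 1 (2186.7 to 2599.1) lay below the other 12 (3182.2 to 4196.2). The second Irf8 probe set, 1448452_at, also had experiment 1 lowest, at 915.0 to 1332.9 against 1584.9 to 2732.6. The IL-10 differences at 30 min were -0.04 (95% interval with the block -0.25 to 0.16) and 0.24 (95% interval with the block -0.08 to 0.56) for the 2 probe sets, and neither passed (limma adjusted p 1.00 with the block). The 30 against 10 min differences on the brighter one were -0.13 (95% interval with the block -0.34 to 0.07) with LPS plus IL-10 and 0.00 (95% interval with the block -0.20 to 0.21) with LPS.

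Irf4, known in macrophages for alternative activation and for competing with Irf5 on Myd88, was not measurable. Its brighter probe set reached the array's median on 1 of 18 arrays and the other one, at 3.5 to 59.4, on none, so neither was tested. At 10 min Irf4 had signals of 32.2, 42.6 and 33.7 with LPS plus IL-10, against 12.3, 45.6 and 29.4 with LPS. At 20 min Irf4 had signals of 115.3, 15.5 and 32.5 with LPS plus IL-10, against 39.9, 61.5 and 47.5 with LPS. At 30 min Irf4 had signals of 46.7, 46.3 and 51.2 with LPS plus IL-10, against 24.1, 70.7 and 34.9 with LPS. The single value at 115.3, with LPS plus IL-10 in experiment 1 at 20 min, had no counterpart in experiments 2 and 3. A low signal could not be told from background, and no difference was detectable at these levels.

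Irf9 is the DNA-binding part of a complex that type I interferon activates. At 10 min Irf9 had signals of 1629.3, 1931.9 and 1491.6 with LPS plus IL-10, against 1703.1, 1930.6 and 1617.0 with LPS. At 20 min Irf9 had signals of 1820.5, 1913.4 and 1236.5 with LPS plus IL-10, against 1643.3, 2031.6 and 1285.4 with LPS. At 30 min Irf9 had signals of 1557.4, 2014.2 and 1635.8 with LPS plus IL-10, against 1760.7, 1848.1 and 1740.9 with LPS. Experiment 2 (1848.1 to 2031.6) lay above all other arrays (1236.5 to 1820.5), and the treatments overlapped at every time. The IL-10 difference at 30 min was -0.05 (95% interval with the block -0.30 to 0.20), and the 30 against 10 min differences were 0.04 (95% interval with the block -0.21 to 0.29) with LPS plus IL-10 and 0.03 (95% interval with the block -0.22 to 0.28) with LPS. The lowest signals, 1236.5 and 1285.4, were both of experiment 3 at 20 min.

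Over the 14 comparisons made, 0 of the 12 tested IRF probe sets passed limma without the block, where 0% to 0.059% of all tested probe sets did (0.00369% for the change of the IL-10 difference between 30 and 10 min, and 0.00738% for IL-10 at 20 min). With the block 1 of 12, Irf1, passed in 3 of them, as given above with their backgrounds. In the other 11 none passed, where 0% to 0.111% of all did. That background was 0.0332% for IL-10 averaged over times and for 20 against 10 min with LPS plus IL-10, 0.0184% for IL-10 at 20 min, 0.0148% for 20 against 10 min with LPS and 0.00738% for the change of the IL-10 difference between 20 and 10 min. At an unadjusted p under 0.05, 0 or 1 of the 12 passed per comparison without the block, where 0.981% to 4.81% of all tested probe sets did, and 0 to 2 with it, where 2.45% to 13.1% did. In the IL-10 comparison at 30 min 2 of the 12 had groups that did not overlap, Irf1 and the dim Irf3 probe set, against 4.81% of all tested probe sets. With LPS plus IL-10, Irf1 was the 1 of 12 without overlap for 30 against 10 min (6.57% of all). None of the 12 was without overlap for IL-10 at 10 min (4.68% of all) or 20 min (4.9%), for 20 against 10 min with LPS plus IL-10 (4.74%) or LPS (6.06%), or for 30 against 10 min with LPS (5.45%). The median IL-10 difference of the 12 at 30 min was -0.02, with 5 above and 7 below 0, and that of all tested probe sets -0.01. Apart from Irf1, the differences of the representative probe sets of 6 genes at 30 min lay between -0.05 and 0.06. A p that misses the threshold does not show equality, and the intervals with the block are the limits these arrays set.

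**Figure D3:**
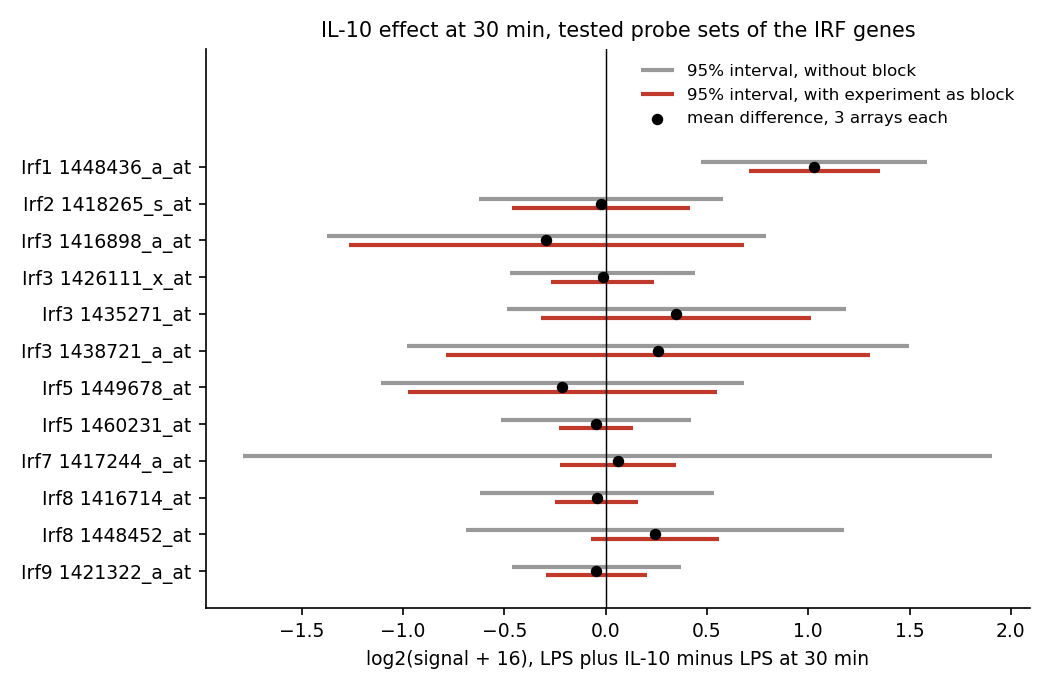
Difference of LPS plus IL-10 minus LPS at 30 min on the log2(signal + 16) scale for the 12 tested IRF probe sets, with 95% intervals from limma without (grey) and with (red) experiment as a block. Irf1 lies at 1.03 with both intervals above 0, and every other interval includes 0.

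Genes of the IRF pathways were read beside the members. Of 17 genes that signal to IRFs 13 were tested, of 10 interferon, receptor and kinase genes 8, of 13 partners and cofactors 11, and of 29 IRF target genes 25. In the IL-10 comparisons at each time and in the 30 against 10 min comparison under each treatment, 0 of each list passed limma in either direction with or without the block, and 0 or 1 without and 0 to 3 with the block had an unadjusted p under 0.05. Of all tested probe sets 1.14% to 3.01% had such a p without and 2.81% to 7.81% with the block in these comparisons. Among all tested probe sets 0% and 0.0184% passed with the block in the IL-10 comparisons at 10 and 20 min, and 0.111% for 30 against 10 min with LPS. At 30 min, of the 13 genes signalling to IRFs 11 were above and 2 below 0 with a median of 0.05, with the receptor Tlr4 (0.05), its co-receptors Cd14 (0.13) and Ly96 (0.03) and the adaptor Ticam1 (0.26) given as log2 IL-10 differences. Of the interferon, receptor and kinase genes 2 were above and 6 below 0 with a median of -0.05, with interferon beta Ifnb1 (-0.16) and the receptor chains Ifnar1 (-0.16), Ifnar2 (-0.05) and Ifngr1 (-0.05). Of the partners 8 were above and 3 below 0 with a median of 0.07, with Stat2 (-0.11), Stat3 (0.07), Spi1 (0.08) and Batf (-0.05). Of the target genes 18 were above and 7 below 0 with a median of 0.04, with the antiviral genes Ifit1 (0.06), Ifit2 (0.07), Ifit3 (0.02) and Mx1 (-0.27). The median of all tested probe sets was -0.01.

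The IRF probe sets were uneven in how far they separated by experiment. Differences between experiments made up 97.7% of the variance of Irf7, 93.4% of the brighter Irf5, 90.5% and 86.3% of the 2 Irf8, 69.1% of the brightest Irf3 and 64.4% of the Irf9 probe set, beside a median of 37.9% over all tested probe sets. The other 6 of the 12 lay below that median, with 36.1% for Irf2, 20.9% for Irf1, 35.9%, 30.3% and 8.75% for the dimmer Irf3 and 15.6% for the dimmer Irf5 probe set. In 3 of those the share between conditions was the larger one, at 69.0% for Irf1, 27.7% for Irf3 1416898_a_at and 35.4% for Irf5 1449678_at. With 6 conditions and 3 experiments, random spread alone gives conditions the larger share, so this order by itself shows no condition effect. The 3 condition shares were higher than in 99.4%, 70.1% and 82.1% of the tested probe sets. The share of Irf7 was higher than that of 99.7% of the tested probe sets, and its share between conditions was 0.503%. For all tested probe sets the median share between conditions was 18.5%. Experiment 2 lay above all other arrays for Irf5, Irf7 and Irf9, 3 of the 12 tested IRF probe sets, against 2.03% of all, and by a mean log2(signal + 16) difference past 2-fold for Irf7 only, against 0.461% of all. Experiment 1 lay below all other arrays for the brightest Irf3, the brighter Irf5 and both Irf8 probe sets, 4 of 12 against 4.77% of all. On the same log2 scale none of these 4 was past 2-fold, against 1.15% of all, but Irf8 1448452_at was close to it at -0.99 and its ratio of medians was 0.461. No IRF probe set lay above all others in experiment 1 (7.43% of all) or experiment 3 (3.33%), or below all others in experiment 2 (1.66%) or experiment 3 (3.73%). These are descriptions of 3 experiments and have no test.

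**Figure D4:**
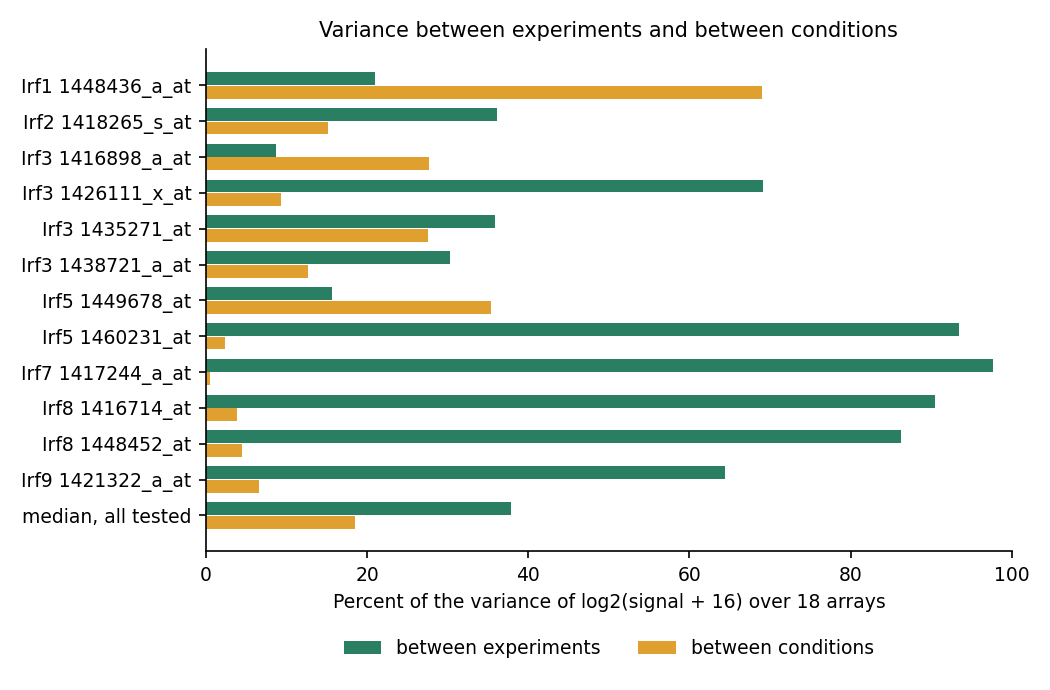
Percent of the variance of log2(signal + 16) over 18 arrays that lay between the 3 experiments (green) and between the 6 conditions (yellow), for the 12 tested IRF probe sets and as the median over all tested probe sets. Irf1 has the larger share between conditions (69.0%), and Irf7 has 97.7% between experiments.

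Some IRF target genes also differed between experiments. Ccl5, a chemokine gene with IRF sites, had 6193.9 to 8168.3 in experiment 2, 904.3 to 1525.3 in experiment 3 and 131.4 to 184.3 in experiment 1. The antiviral genes Oas1a, Oasl1 and Oasl2 and the peptide transporter gene Tap1 also lay above all other arrays in experiment 2, at 10850.4 to 12703.2 against 6921.1 to 10015.5 for Oas1a. Together with Ccl5 these were 5 of the 25 tested targets, each counted by 1 probe set. Counted in the same way, 380 of 12527 genes lay above all other arrays in experiment 2, and 2.03% of all tested probe sets did. The excess of experiment 2 on the log2 scale was 4.04 for Ccl5, 0.49 for Oas1a, 0.63 for Oasl1, 0.64 for Oasl2 and 0.58 for Tap1, beside 2.13 for Irf7, and unlike Irf7 the Ccl5 signal also separated experiments 3 and 1. In experiment 3, 4 of the 25 targets lay above all other arrays (3.33% of all) and 1 below (3.73%), and in experiment 1, 5 of the 25 lay below (4.77%). These shares of all count every tested probe set rather than 1 for each gene. Ifit1 was highest in experiment 3 (2634.1 to 4512.4, against 1739.8 to 2154.0 in experiment 2), and so was Rsad2. The partner gene Spi1 had 3540.4 to 4189.5 in experiment 1 and 6637.9 to 8090.4 in experiments 2 and 3, with experiment 1 lowest as for Irf8. Of the 11 tested partners it was the only 1 below all other arrays in experiment 1 (4.77% of all). Irf2bpl ran the other way and was the only 1 above (7.43% of all). It had 1485.7 to 1817.8 in experiment 1, 699.8 to 1096.9 in experiment 2 and 430.1 to 722.0 in experiment 3. The summed granulocyte markers, mostly signal of S100a8 and S100a9, were 11855.2 to 14020 in experiment 2. They were 7037.6 to 8583.8 in experiment 1 and 5639.6 to 9084.7 in experiment 3. The macrophage sums of the experiments overlapped. The part of these cell types in the differences of Irf7 and the other members was not tested.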

How the data were processed

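Gene expression was measured with 18 single-colour Affymetrix arrays, 3 in each of 6 groups formed from the labels by treatment and time. The deposited intensities are linear signals that came from GCOS 1.4, per the submitters' processing notes. Which algorithm computed them is not stated in those notes. The deposited signals had a mean of 500.003 to 500.004 on every array after trimming 2% of probe sets at each end, so a change in total RNA per cell would not be seen. No detection calls were used, so low signals cannot be told from background, and precision is limited by the number of arrays. The numbering of experiments comes from the labels.

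Gene names are those of the platform's annotation, which may be out of date: 34958 carried 1 symbol, 932 several and 9211 none, and no probe set with several symbols held a member. All promoter windows came from the RefSeq table. Signals were turned into log2(signal + 16), which understates changes of dim probe sets. A probe set was tested if it reached the array's median, taken without the 64 control probe sets, on at least 3 arrays, which left 27110. limma 3.58.1 in R 4.3.3 was run on the 18 arrays together, each group having a coefficient, with an intensity trend (12 residual degrees of freedom), with two-sided tests and Benjamini-Hochberg adjustment over all tested probe sets at 0.05. The fit with experiment as a block (10 residual degrees of freedom) stands beside it. After group means were subtracted, arrays of 1 experiment correlated at 0.20 to 0.64 (45 pairs), and arrays of different experiments and groups at -0.47 to 0.065 (90 pairs). The labels give only replicate numbers, and from these correlations the numbers were taken to pair the samples. No array was a copy of another, with up to 104 equal probe sets in a pair over 153 pairs. The fit was run on simulated data with independent noise, no differences between experiments, and planted changes larger than the Irf1 difference. That run cannot show how the block performs on these arrays or how well a change of the size seen for Irf1 is found.

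A gene is represented by its tested probe set with the highest mean log2 signal. Values on every array are given for these and for every probe set that passed, and the 5 genes most like a member that passed are named, with pathway genes that passed and up to 4 others of each list in list order. The members, lists and tests were chosen with earlier results of these data known. The alternatives tried were quantile normalisation, other pseudocounts (1 and 64), a stricter filter (75th percentile) or none, no intensity trend, only the groups compared, the block, and leaving out experiments or arrays.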

Additional observations from a re-analysis of the deposited data

Results flagged for a closer look

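The IL-10 difference of Irf3 on probe set 1426111_x_at ran in opposite directions at 20 and 10 min. In experiments 1, 2 and 3 it was 0.13, 0.15 and 0.09 on the log2 scale at 20 min, and -0.04, -0.33 and -0.003 at 10 min. The change between the times was 0.25 and did not pass limma (adjusted p 1.00 without the block and 0.839 with it). At 30 min the difference was -0.02, and the other 3 Irf3 probe sets changed by 0.71 (1416898_a_at), 0.26 (1435271_at) and -0.90 (1438721_a_at) between 20 and 10 min, without a common sign.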

How the results depend on the processing

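The count of IRF probe sets that passed was 0 in all 14 comparisons without the block, and stayed 0 under every alternative without it: quantile normalisation, pseudocounts, filters, no trend, only the groups compared, and each experiment left out. With the replicate block the count was 1 (Irf1) for the IL-10 difference at 30 min, for 30 against 10 min with LPS plus IL-10 and for 30 against 10 min averaged over treatments, also with the 20 min LPS arrays of experiments 2 and 3 left out (adjusted p 0.00682, 0.00207 and 0.0117). Leaving out 1 experiment in the paired fit gave counts of 0 to 1 in these 3 comparisons. Leaving out single arrays with the block, an alternative chosen after seeing the data, also gave 0 to 1 there, and took the count from 0 to 1 for the IL-10 difference averaged over times, for 30 against 20 min with LPS plus IL-10 and for the change of the IL-10 difference between 30 and 10 min. The block changed no other call.

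For Irf1 at 30 min the IL-10 difference ranged from 0.79 to 1.33 over the alternatives without the block, with adjusted p of 1.00 throughout. Of 5656 values of single IRF probe sets set against their first fit, 5595 stayed on the same side of the threshold and 61 passed only under the alternative. In the first fit, without the block, no value had passed, so none could be lost or change sign. Values that never passed changed sign in 462 cases. With 3 arrays a group and no detection calls, small changes of dim probe sets such as those of Irf4 cannot be measured here.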

Other observations

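Irf7 was the 6th of 12527 genes by the excess of experiment 2 over the other experiments, among the 380 genes whose 6 arrays in experiment 2 lay above all others. The 5 genes before it, named after their values were seen, were Ccl5 (4.04 on the log2 scale), Cfb (2.72), Tent5c (2.60), Ccl8 (2.32) and G530011O06Rik (2.28), with Irf7 at 2.13. Cfb, a complement factor gene, had 733.0 to 1083.4 in experiment 2, against 227.6 to 390.6 in experiment 3 and 24.2 to 70.3 in experiment 1. Ccl8, a chemokine gene, had 845.3 to 1064.3 in experiment 2, against 222.6 to 364.4 in experiment 3 and 93.1 to 128.9 in experiment 1. Tent5c did not share that order, with 692.9 to 1149.1 in experiment 1 and 23.3 to 76.5 in experiment 3. Each experiment was done once, so these values have no test.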
